A study of Homo sapiens with 6 samples.

Results

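Single-site units are stretches of 1 strand of a human chromosome in which HEK293 cells made polyadenylated RNA ends at 1 poly(A) site, with no other site of similar standing within 5000 nt on that strand. Of 28114 units built from 49695 nuclear poly(A) sites, 18323 (65.2%) were of this kind, 9330 on plus and 8993 on minus strands. The members were chosen by read counts. The 6 libraries were scaled to CPM (reads per 1000000 reads of the library), pooled at equal weight, and the highest position was taken with every end within 25 nt on its strand until no position remained. Sites with a mean CPM of at least 1 were kept, the mitochondrial genome was left out, sites with gaps of at most 5000 nt were joined, and units of 1 site were retained. The other units, 16.5% with 2 sites and 18.3% with 3 or more, offer a choice between tandem ends, while the total of a single-site unit is the count at its 1 site. A unit is not a gene, and a low site under the threshold may still lie beside it.

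Cleavage and polyadenylation fix the 3′ end of nearly every messenger RNA. Cleavage factor I (CF Im) is the part of the machinery that binds UGUA motifs in the nascent RNA, as a dimer of CF Im25 with a pair of larger subunits, CF Im59 or CF Im68. It is known above all for its role in the choice between alternative poly(A) sites of 1 transcript, so units with 1 site are where that choice is least visible. The libraries were made by A-seq, which primes reverse transcription where the transcript body meets the poly(A) tail and so counts the cleaved end of each molecule.

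Cells of the human embryonic kidney line HEK293 received siRNA against CF Im25, siRNA against CF Im59 or a scrambled siRNA, or no siRNA, and poly(A) RNA from these 4 groups was fragmented by alkaline hydrolysis. A further group given siRNA against CF Im68 and its own scrambled control were fragmented with RNase I. Transfected cells were collected 3 days later. There was 1 library per group, so no difference could be set against a spread between replicates and no p-value was computed. All intervals are 95% intervals that cover counting error only, exact unless said otherwise, and copies made by PCR are not independent molecules. The data measure RNA ends, so more transcription and slower decay cannot be told apart. Genome sequence and annotation of the files' build, hg19, were not used here, so units are named by chromosome, strand and position of the main nucleotide.

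Single-site units held a nearly constant part of each library. They took 22.4% of the reads in nuclear units after CF Im25 siRNA, 22.4% after CF Im59 siRNA, 22.7% with scrambled siRNA and 22.4% without siRNA in the alkaline libraries, and 22.2% after CF Im68 siRNA and 21.9% with scrambled siRNA in the RNase I libraries. Library totals lay between 5351980 reads (scrambled siRNA, RNase I) and 18183644 reads (no siRNA). The median unit had 25 reads after CF Im25 siRNA, 28 after CF Im59 siRNA, 19 after CF Im68 siRNA, 23 and 10 in the alkaline and RNase I scrambled libraries, and 39 without siRNA. Units with 0 reads numbered 962 after CF Im68 siRNA and 1164 in its scrambled control, and 128 to 231 in the alkaline libraries.

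Most members were low. Their median level was 2.21 CPM in the mean of the 6 libraries (interquartile range 1.38 to 5.17), against 9.89 CPM for the 4645 units with 2 sites and 33.0 CPM for the 5146 units with 3 or more. A mean below 2 CPM was found in 8322 members (45.4%), and 297 reached 100 CPM. At the threshold on level, the 5 members just inside had 1.00006 to 1.00026 CPM and the 5 lone sites just outside 0.99962 to 0.99995. At the threshold on distance, the 5 nearest neighbours of members lay 5001 to 5006 nt away, and the 5 widest gaps joined into units of 2 sites were 4986 to 5000 nt. Over the autosomes and chromosome X, the single-site share of units ran from 61.4% on chromosome 21 to 70.1% on chromosome X. All 6 libraries held reads at 16365 members (89.3%). More than 50% of the scaled reads came from 1 library at 1661 members (9.07%, against 13.7% of the sites of other units), and of these 654 had it in CF Im68 siRNA and 618 in its scrambled control.

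The highest member, on the plus strand of chromosome 15 at 69747885, had 8436 CPM (from here on scaled to the reads in nuclear units) after CF Im25 siRNA, 10004 after CF Im59 siRNA, 7644 with scrambled siRNA and 7431 without siRNA, and 2959 after CF Im68 siRNA and 2682 with scrambled siRNA in the RNase I libraries. The unit at chromosome 20 plus strand 60963576 had the opposite order, with 10651 CPM after CF Im68 siRNA and 9130 in its RNase I control, and 1798 to 2680 CPM in the alkaline libraries. Levels were therefore compared only within a fragmentation method. Between the scrambled controls, RNase I over alkaline, 72.8% of 5560 single-site units differed by 2-fold or more, against 49.5% of 8575 units with 2 or more sites, and the median log2 ratio was -0.78 against -0.13. Single-site units had the lower levels, and the alkaline control held more reads, 9690883 against 5351980. The part of level and depth in this difference was not tested.

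Low ends around the single sites moved upstream after CF Im25 and CF Im68 siRNA. Reads 26 to 5000 nt away on the same strand, all in sites below the threshold of 1 CPM, are called minor ends here and are given per 100 reads at the single sites. Upstream minor ends were 3.34 after CF Im25 siRNA and 2.56 after CF Im59 siRNA, against 2.93 with scrambled siRNA, which had 2.60 without siRNA beside it. Downstream minor ends were 2.44 after CF Im25 siRNA and 2.32 after CF Im59 siRNA, against 2.70 with scrambled siRNA and 2.42 without. In the RNase I libraries upstream minor ends were 4.09 after CF Im68 siRNA against 3.80 with scrambled siRNA, and downstream ones 2.57 against 3.37. The rule that chose the members set how high these ends can be, and it did not use the contrast between libraries.

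The balance of upstream to downstream minor ends, a quotient chosen after these values were seen, separated the libraries more clearly than either side. It was 1.37 after CF Im25 siRNA and 1.10 after CF Im59 siRNA, against 1.09 with scrambled siRNA in the alkaline set, where it was 1.08 without siRNA. It was 1.59 after CF Im68 siRNA and 1.13 in the RNase I scrambled control. With intervals by a normal approximation on the log scale, the quotient was 1.26 times that of the control after CF Im25 siRNA (1.24 to 1.28), 1.02 times after CF Im59 siRNA (0.9995 to 1.03), 1.41 times after CF Im68 siRNA (1.38 to 1.43) and 1.01 times for scrambled over no siRNA (0.995 to 1.03). Among members with no other site within 10 kb, whose windows cannot overlap those of a neighbour, the ratios were 1.32, 0.997, 1.58 and 1.03 in the same order. The rise of the upstream side alone after CF Im68 siRNA, 1.08-fold, turned to 0.960 when each position was counted as at most 5 reads in a library, while the ratio of the quotients was then 1.36.

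**Figure D1:**
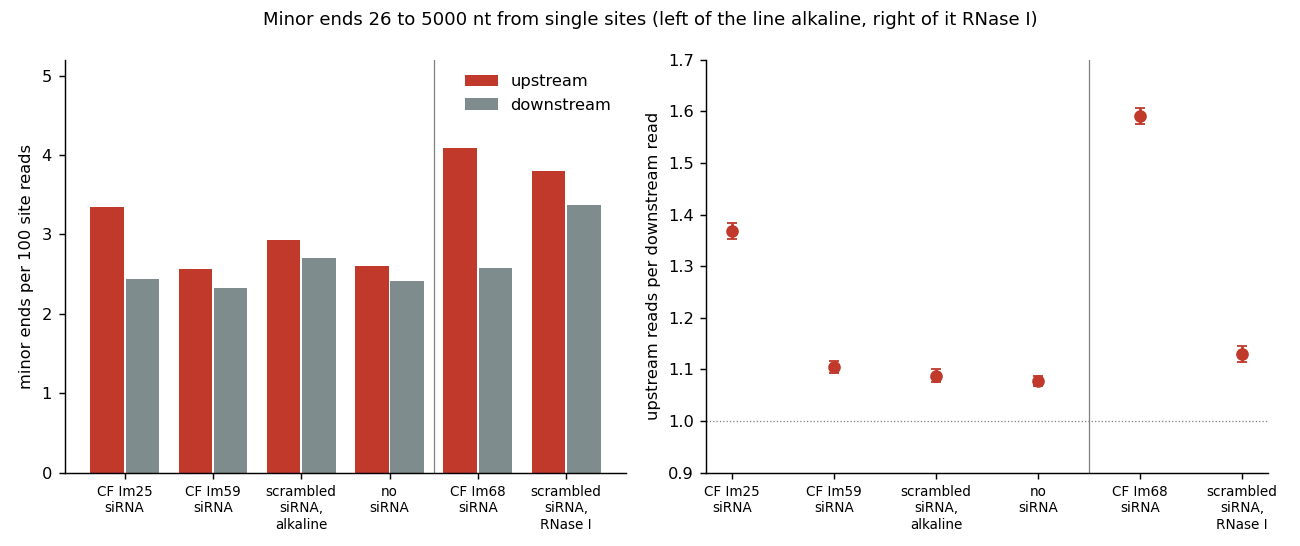
Minor ends 26 to 5000 nt from the sites of 18323 single-site units in the 6 libraries, 4 alkaline and 2 RNase I. Left, upstream and downstream reads per 100 site reads. Right, upstream reads per downstream read with exact 95% intervals of counting error, on an axis that does not start at 0; CF Im25 siRNA (1.37) and CF Im68 siRNA (1.59) stand above the other 4 libraries (1.08 to 1.13).

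The change depended on distance from the site. At 26 to 100 nt the upstream ratio was 0.991 for CF Im25 siRNA and 0.964 for CF Im68 siRNA, and the downstream ratio 1.10 and 0.941. Over 100 and up to 500 nt the upstream ratio was 1.15 with CF Im25 siRNA, 0.979 (0.954 to 1.004) with CF Im59 siRNA, 1.18 with CF Im68 siRNA and 0.992 for scrambled over no siRNA. The downstream ratio there was 0.860, 0.802 (0.778 to 0.828), 0.804 and 1.12 in the same order, so the balance moved upstream after CF Im59 siRNA as well (1.22 times the control) and the other way for scrambled over no siRNA (0.887 times). After CF Im25 and CF Im68 siRNA, over 500 and up to 1000 nt, the upstream ratio was 1.20 (1.16 to 1.24) and 1.28 (1.24 to 1.33), and from there to 2000 nt 1.26 (1.23 to 1.30) and 1.22 (1.18 to 1.25). Beyond 2000 nt it was 1.11 and 0.963. Downstream minor ends between 1000 and 2000 nt were lower after both siRNAs, 0.863 times the control after CF Im25 siRNA and 0.680 times after CF Im68 siRNA. After CF Im59 siRNA both sides were below the control at that distance, with ratios of 0.853 upstream and 0.851 downstream, and for scrambled over no siRNA both were above it, with 1.19 and 1.13.

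**Figure D2:**
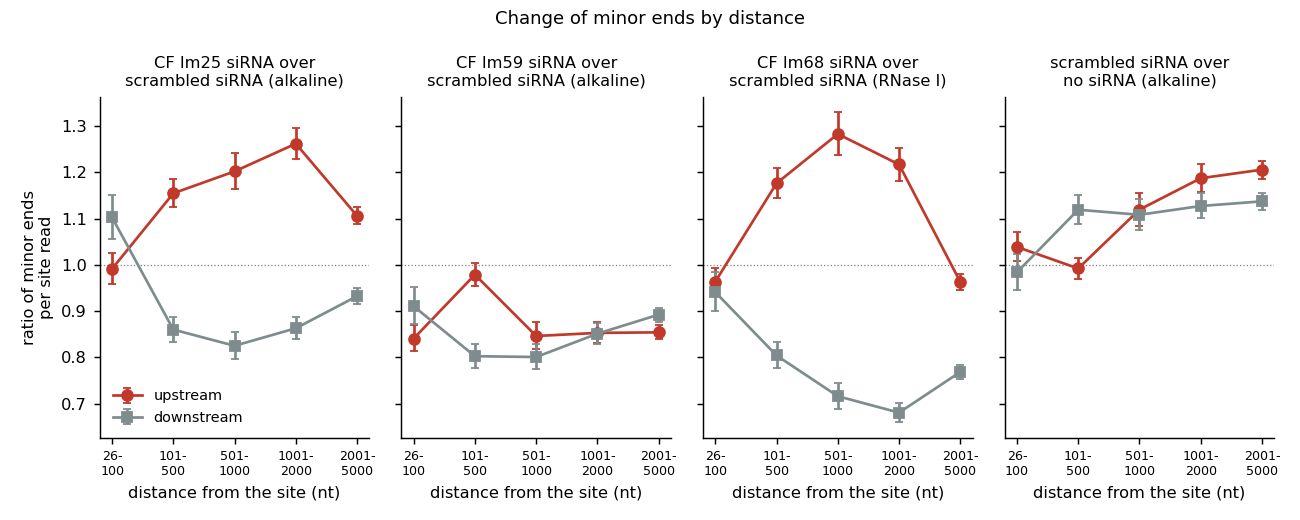
Ratio of minor ends per site read, siRNA over control, by distance from the single site in nt, upstream and downstream, for the 4 comparisons. Bars are exact 95% intervals of counting error. Upstream lies above downstream in every interval beyond 100 nt after CF Im25 and CF Im68 siRNA, most between 500 and 2000 nt, and after CF Im59 siRNA at 100 to 500 nt (0.979 and 0.802). Smaller differences of this order lie after CF Im59 siRNA at 500 to 1000 nt (0.846 and 0.801). They also lie beyond 500 nt for scrambled over no siRNA, with 1.21 and 1.14 beyond 2000 nt. The order is reversed after CF Im59 siRNA beyond 2000 nt (0.854 and 0.892). It is also reversed for scrambled over no siRNA at 100 to 500 nt (0.992 and 1.12).

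After CF Im25 and CF Im68 siRNA the upstream side rose at more units than it fell, and large rises were few. Among members with at least 50 reads of site and upstream minor ends in both libraries, the upstream share of those reads rose by 10 percentage points or more at 155 of 4071 units after CF Im25 siRNA and fell as much at 49. It rose at 156 of 2896 and fell at 25 after CF Im68 siRNA. After CF Im59 siRNA 57 of 4269 rose and 89 fell, and for scrambled over no siRNA 95 of 4911 rose and 82 fell. The limit of 10 points was chosen after values were seen, and the 3 largest rises of each are named next or further on.

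On the minus strand of chromosome 2 at 65537986, upstream minor ends made up 64.5% of the reads after CF Im25 siRNA (49 minor and 27 site reads), against 6.96% with scrambled siRNA (8 and 107). The share was 14.3% after CF Im59 siRNA and 8.18% without siRNA, and in the RNase I libraries 61.5% after CF Im68 siRNA and 21.1% with scrambled siRNA. Minor ends, each too low for the threshold, outnumbered the reads at the site in the CF Im25 and CF Im68 siRNA libraries alone. At chromosome 6 plus strand 118031784 the share was 90.0% after CF Im68 siRNA (72 and 8 reads), against 12.9% in its control (11 and 74), and 42.9% after CF Im25 siRNA, 13.1% after CF Im59 siRNA, 8.77% with scrambled siRNA and 13.0% without siRNA. The unit at chromosome 15 plus strand 48066418 had 61.3% after CF Im25 siRNA and 12.5% after CF Im59 siRNA, against 12.0% with scrambled siRNA and 18.5% without siRNA, and 68.3% after CF Im68 siRNA against 36.4% in its control. The second largest rise of each had a high share in a control library too. At chromosome 11 plus strand 96126725 it was 61.6% after CF Im25 siRNA and 27.8% after CF Im59 siRNA, against 9.72% with scrambled siRNA and 9.60% without siRNA, but 94.7% after CF Im68 siRNA and 76.9% in its control. At chromosome 12 minus strand 21622302 it was 84.5% after CF Im68 siRNA and 9.09% in its control, but 57.1% after CF Im25 siRNA, 75% after CF Im59 siRNA, 21.4% with scrambled siRNA and 71.4% without siRNA.

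Other units were mostly far away. The nearest site on the strand lay at a median of 26114 nt, 4045 members (22.1%) had one within 10 kb, and 6363 (34.7%) had none within 50 kb. Median totals differed slightly with the side on which a near neighbour lay. After CF Im25 siRNA the median log2 ratio was 0.09 for 736 tested members whose nearest site was 5 to 10 kb downstream and -0.05 for 754 with it 5 to 10 kb upstream. After CF Im68 siRNA these were 0.20 (525 units) and 0.04 (616 units), and after CF Im59 siRNA -0.03 (743 units) and 0.08 (811 units). Scrambled over no siRNA gave 0.11 (825 units) and 0.01 (895 units), the same order as CF Im25 siRNA, and its part in the result was not tested. With no siRNA as the control, CF Im25 siRNA gave 0.14 and -0.04, and CF Im59 siRNA 0.04 and 0.05. The interquartile ranges, -0.57 to 0.74 and -0.63 to 0.60 after CF Im25 siRNA, overlapped almost wholly. At 10 to 20 kb the medians were 0.01 downstream and 0.05 upstream after CF Im25 siRNA, and 0.11 on both sides after CF Im68 siRNA.

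**Figure D3:**
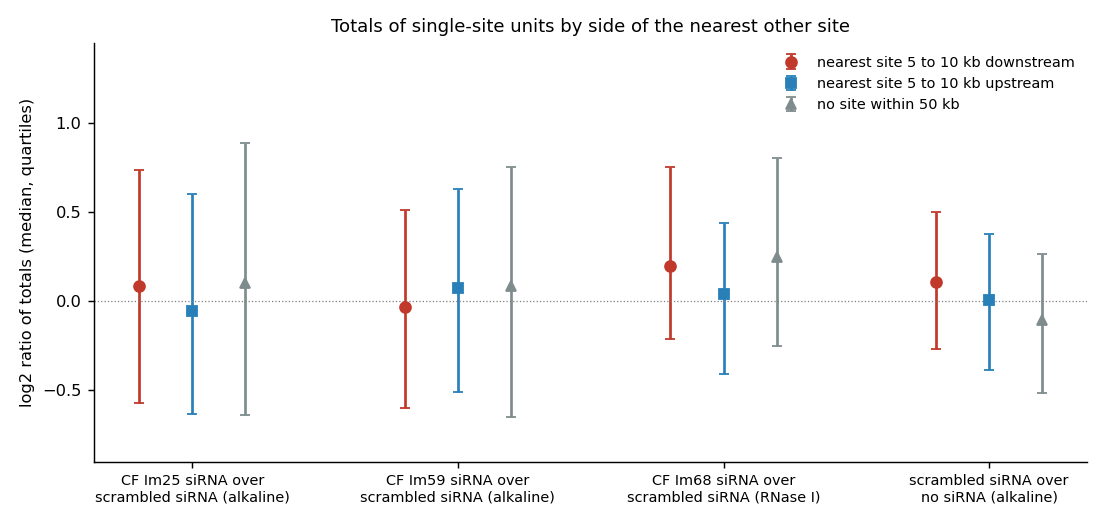
Median log2 ratio of totals, with quartiles as bars, of tested single-site units grouped by the side of the nearest other site, for the 4 comparisons. With a neighbour 5 to 10 kb downstream the median was 0.09 for CF Im25 siRNA and 0.20 for CF Im68 siRNA, with one upstream -0.05 and 0.04, and the quartiles of all groups overlap. With no site within 50 kb the median was 0.10 and 0.25.

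Adjacent single-site units 5 to 10 kb apart formed 1294 pairs. The upstream unit's share of the pair's reads rose by 20 points or more at 50 and fell at 33 of 708 pairs with at least 50 reads in both libraries after CF Im25 siRNA. With CF Im68 siRNA 29 of 465 rose and 13 fell, with CF Im59 siRNA 27 of 742 rose and 43 fell, and for scrambled over no siRNA 34 of 793 rose and 22 fell. The limit of 20 points was chosen after values were seen. The median changes were 0.30 points for CF Im25 siRNA, 0.07 for CF Im68 siRNA, -0.23 for CF Im59 siRNA and 0.23 for scrambled over no siRNA, and most pairs moved by less than 20 points. On chromosome 22, plus strand position 26118635 held 66.5% of the reads shared with the site at 26125257, 6622 nt downstream, after CF Im25 siRNA and 9.50% after CF Im59 siRNA. In the alkaline controls it held 5.75% with scrambled siRNA and 6.94% without siRNA. In the RNase I libraries it held 92.8% after CF Im68 siRNA (748 and 58 reads) and 18.1% with scrambled siRNA (25 and 113 reads). At this locus, where the gap was wider than the 5000 nt limit, the upstream site rose and the downstream site fell after CF Im25 siRNA and likewise with CF Im68 siRNA.

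Totals of single-site units changed in both directions after each siRNA. Changed units were those whose ratio was 2-fold or more and had an interval that excluded 1, out of units tested because 1 library or both held at least 50 of their reads. After CF Im25 siRNA, 1114 of 6157 tested members were higher (18.1%), against 13.1% of all nuclear units, and 942 were lower (15.3%), against 12.1%. After CF Im59 siRNA 850 of 6396 were higher (13.3%), against 8.61% of all units, and 951 lower (14.9%), against 11.1%. After CF Im68 siRNA 844 of 5322 were higher (15.9%), against 11.2%, and 316 lower (5.94%), against 6.96%. For scrambled over no siRNA 461 of 7622 were higher (6.05%), against 4.30%, and 507 lower (6.65%), against 4.29%. The background includes the members, which were 6157 of 14983 tested units after CF Im25 siRNA. The median log2 ratio of the members was 0.05, 0.02, 0.17 and -0.01 in the 4 comparisons, against 0.00, -0.06, 0.07 and 0.04 over all units.

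The scrambled control itself bore on these counts. Against no siRNA, 869 of 7933 members were higher after CF Im25 siRNA and 1107 lower, with 9.86% and 10.3% of all units, and 560 of 7905 were higher and 992 lower after CF Im59 siRNA, with 4.94% and 8.25% of all units. Of the units called higher after CF Im25 siRNA, 653 of 1114 passed against both controls (58.6%, against 58.7% of all nuclear units), and of those called lower 438 of 815 that could be tested (53.7%, against 52.3%). After CF Im59 siRNA 348 of 850 higher (40.9%, against 36.8%) and 368 of 810 lower units did (45.4%, against 39.6%). Both comparisons of a siRNA share its library, so this is not an independent repeat.

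Direction depended on scaling and depth after CF Im68 siRNA. Of its called members 72.8% were higher, against 61.6% of the called units over all nuclear units. Among the members it was 83.2% with TMM scaling and 82.6% with median-of-ratios scaling. When all libraries were thinned to 5351980 reads it was 50.3% of the members (334 higher and 330 lower). The CF Im68 siRNA library held 12997383 reads and its control 5351980, and of the 409 members at 1 to 2 CPM that reached 50 reads, 239 were called higher and 2 lower. With no minimum reads 1330 members were higher and 2253 lower, and at a mean of 5 CPM or more 254 were higher and 226 lower. The median of 0.17 is over members tested by the same rule on reads. TMM shifted every log2 ratio by 0.18 there and by -0.11 for scrambled over no siRNA, where 47.6% of the called members were higher, 35.3% with TMM, 34.8% with median of ratios and 64.1% when thinned. For CF Im59 siRNA the share was 47.2%, 54.5% with TMM, 54.2% with median of ratios and 41.7% when thinned. For CF Im25 siRNA it lay between 51.0% and 54.8% under the same settings. With no siRNA as the control it was 44% after CF Im25 siRNA, with a median log2 ratio of -0.04, and 36.1% after CF Im59 siRNA. Over all nuclear units these 2 siRNAs had 52.1% and 43.7% against scrambled siRNA, and 48.8% and 37.4% against no siRNA. Scrambled over no siRNA had 50% over all nuclear units.

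The called share depended on level. Of the 132 members at 1 to 2 CPM that had the reads to be tested after CF Im25 siRNA 98.5% were called, and a unit this low reaches 50 reads mainly where it is high in 1 library. From 5 CPM upward the called share of single-site units fell with level in these 4 comparisons. After CF Im59 siRNA it was higher in single-site units than in units with 2 or more sites in all 5 classes, 26.9% against 20.1% at 5 to 10 CPM and 9.09% against 6.82% at 100 CPM or more. Scrambled over no siRNA had the same order in all 5 classes, 10.2% against 8.48% at 5 to 10 CPM and 3.37% against 2.60% at 100 CPM or more. With CF Im68 siRNA the order was the reverse in all 5 classes, 21.8% against 25.6% at 5 to 10 CPM and 3.38% against 5.76% at 100 CPM or more. After CF Im25 siRNA it was 30.6% against 27.2% at 5 to 10 CPM and 9.43% against 11.9% at 100 CPM or more. With no siRNA as the control for CF Im25 siRNA, single-site units had the lower share at 5 to 10 CPM, 22.1% against 23.3%, and at 100 CPM or more, 5.39% against 8.28%, but not at 20 to 50 CPM, 12.6% against 12.4%. With 1 library per group none of these differences could be tested.

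**Figure D4:**
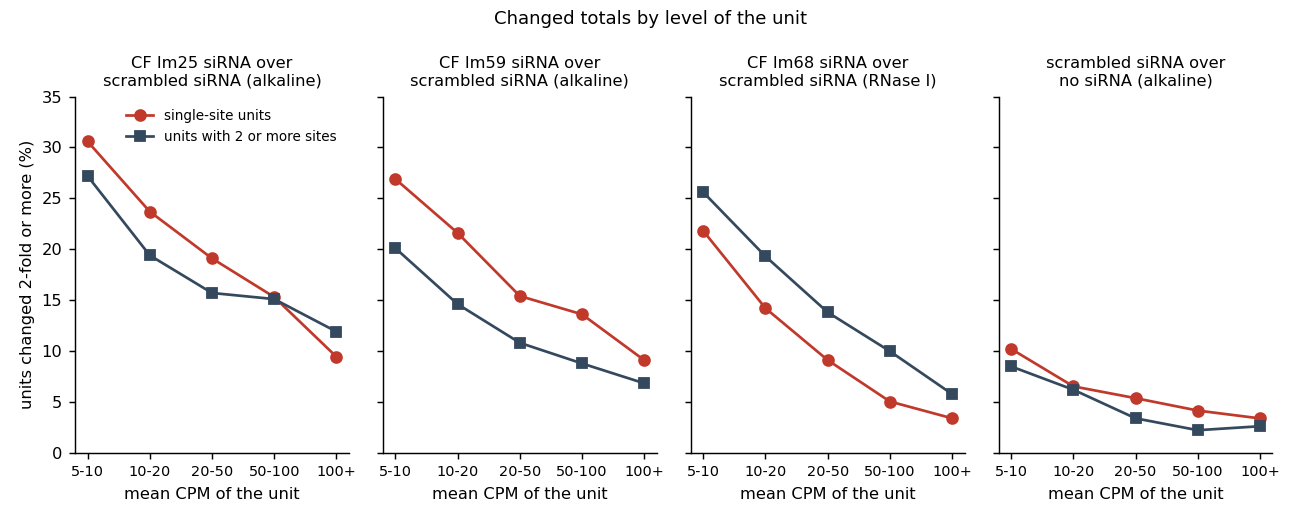
Percentage of tested units changed by 2-fold or more, by mean CPM of the unit over the 6 libraries, for single-site units and units with 2 or more sites in the 4 comparisons. At 5 to 10 CPM single-site units stand at 30.6% after CF Im25 siRNA, 26.9% after CF Im59 siRNA, 21.8% after CF Im68 siRNA and 10.2% for scrambled over no siRNA, and the lines of single-site units fall with level in all 4 panels.

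Units named for a siRNA had at least 100 reads in 1 library and the ratio whose interval stayed farthest from 1, and for CF Im25 and CF Im59 siRNA they were also called against no siRNA. The rule was met by 264 higher and 208 lower members after CF Im25 siRNA, 157 and 160 after CF Im59 siRNA, and 405 and 136 after CF Im68 siRNA. The last pair had no second control to pass. Against scrambled siRNA alone the counts were 500 and 421 after CF Im25 siRNA, and 373 and 416 after CF Im59 siRNA. No share of all nuclear units stands beside these counts, so they serve the choice of names only. CF Im25 and CF Im59 siRNA share the scrambled and no siRNA controls, so their values are given side by side. The first 10 units in each direction spanned 15.9-fold to 78.5-fold higher after CF Im25 siRNA (interval of the highest 21.4 to 654, 2 control reads), besides those with 0 control reads, and 14.7-fold to 178-fold lower (interval of the highest 31.5 to 7086, 1 read after the siRNA). After CF Im68 siRNA they spanned 7.65-fold to 51.6-fold higher (interval of the highest 14.1 to 428, 2 control reads), besides 1 unit with 0 control reads, and 6.21-fold to 20.5-fold lower. The 6 positions of rank 7 to 10 that are given in full, 155307311, 164286792, 37098931, 134249419, 84504268 and 71564599, were picked after their values were seen.

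Several single sites were nearly silent in both alkaline controls and used after CF Im25 siRNA. At chromosome 12 plus strand 19826022 there were 136 reads after CF Im25 siRNA (14.1 CPM), 4 after CF Im59 siRNA, 0 with scrambled siRNA and 3 without siRNA, at least 40.7-fold higher than scrambled siRNA when 3 reads are taken as the floor of that library, with an exact lower limit of 32.6-fold. In the RNase I libraries it had 13 reads after CF Im68 siRNA and 0 in the control. At chromosome 2 plus strand 155307311 the level was 18.8 CPM after CF Im25 siRNA and 3.64 after CF Im59 siRNA, against 0.576 with scrambled siRNA and 0.423 without siRNA (32.7-fold for CF Im25 over scrambled siRNA, interval 13.7 to 102), and 2.83 CPM after CF Im68 siRNA against 0.853 in its control. At both units CF Im25 siRNA was the highest of the 4 alkaline libraries, as the choice of units for that comparison favours. At ranks 1, 2, 3 and 5 of these rises were chromosome 12 minus strand 5863900, X minus 137751500, 6 plus 12212985 and 4 minus 171672590. The site at 12212985 was also rank 1 of the rises for CF Im59 siRNA. All these units had 0 reads with scrambled siRNA. In this order they had 441, 192, 174 and 103 reads after CF Im25 siRNA and 80, 57, 162 and 31 after CF Im59 siRNA. Their main nucleotides held 95.9%, 100%, 100% and 100% of the reads, against 89.8% and 47.5% at the units above. The part of PCR copies in these rises was not tested.

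Some sites were high with CF Im25 and CF Im59 siRNA alike. The minus strand site of chromosome 6 at 164286792 had 1350 reads (140 CPM) after CF Im25 siRNA and 1612 reads (140 CPM) after CF Im59 siRNA, against 8.76 CPM with scrambled siRNA and 8.34 without siRNA, 15.9-fold (12.6 to 20.4) and 16.0-fold (12.7 to 20.4) over scrambled siRNA. With RNase I it had 23.6 CPM after CF Im68 siRNA and 56.1 in the control, which is lower after the siRNA. At chromosome 7 plus strand 55330138 the levels were 18.1 CPM after CF Im25 siRNA and 9.11 after CF Im59 siRNA, against 0.230 with scrambled siRNA and 0.363 without siRNA, and 0.913 after CF Im68 siRNA against 4.69 in its control. The highest of the units named for CF Im59 siRNA, chromosome 8 minus strand 134249419, had 1583 CPM after CF Im25 siRNA and 1647 after CF Im59 siRNA, against 216 with scrambled siRNA and 585 without siRNA. Its RNase I levels were 182 CPM after CF Im68 siRNA and 374 in the control. At chromosome X plus strand 10412728 the levels were 39.8 CPM after CF Im25 siRNA and 28.6 after CF Im59 siRNA, against 1.96 with scrambled siRNA and 2.18 without siRNA, with 1.83 after CF Im68 siRNA and 2.77 in its control. At all 4 units the CF Im68 siRNA library lay below its own control in CPM. This rested on few reads after CF Im68 siRNA and in its control at 55330138 (10 and 22) and at 10412728 (20 and 13).

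The rule for naming lower units for CF Im25 siRNA favours those abundant in both alkaline controls, as the units given here were. On the plus strand of chromosome 15 at 41248710 there were 11.8 CPM after CF Im25 siRNA and 17.9 after CF Im59 siRNA, against 229 with scrambled siRNA and 204 without siRNA, 19.4-fold lower after CF Im25 siRNA (16.1 to 23.6). The same site had 12.2 CPM after CF Im68 siRNA and 36.0 in its control. At chromosome 6 plus strand 31685696 the levels were 2.48 CPM after CF Im25 siRNA and 2.86 after CF Im59 siRNA, against 49.2 with scrambled siRNA and 82.8 without siRNA, and 1.55 after CF Im68 siRNA and 1.92 in its control. Chromosome 3 plus strand 185773314 differed in that CF Im59 siRNA left it nearer the controls, with 1.76 CPM after CF Im25 siRNA and 30.9 after CF Im59 siRNA, against 57.6 with scrambled siRNA and 52.8 without siRNA. Likewise, chromosome 22 plus strand 37098931 had 3.93 CPM after CF Im25 siRNA and 27.6 after CF Im59 siRNA, against 70.4 with scrambled siRNA and 36.9 without siRNA.

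The units given here among the falls named for CF Im59 siRNA had higher CPM with scrambled siRNA than without siRNA, least so at the first. That unit, at chromosome 6 plus strand 88499357, had 0 reads after CF Im59 siRNA and 1 after CF Im25 siRNA. It had 160 reads with scrambled siRNA (18.4 CPM) and 258 without siRNA (15.6 CPM). The unit at chromosome 8 plus strand 69156852 had 3.12 CPM after CF Im59 siRNA and 5.89 after CF Im25 siRNA, against 144 with scrambled siRNA and 51.9 without siRNA (46.2-fold lower after CF Im59 than with scrambled siRNA, 33.2 to 66.3). At chromosome 17 minus strand 39775695 the levels were 2.51 CPM after CF Im59 siRNA and 4.24 after CF Im25 siRNA, against 74.5 with scrambled siRNA and 41.7 without siRNA. In the RNase I libraries the units on chromosomes 8 and 17 were low. They had 1.10 and 1.73 CPM after CF Im68 siRNA, and 5.33 and 0.853 CPM in the control. A rise that was larger after CF Im59 than after CF Im25 siRNA lay at chromosome 12 plus strand 84504268, with 92.5 CPM after CF Im59 siRNA and 45.6 after CF Im25 siRNA, against 9.10 with scrambled siRNA and 15.9 without siRNA.

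Several units named for CF Im68 siRNA were nearly silent in the alkaline libraries. At chromosome 3 minus strand 115490553 there were 394 reads (36.0 CPM) after CF Im68 siRNA and 7 reads (1.49 CPM) in its control, 24.1-fold (11.6 to 60.3). In the alkaline libraries it had 4 reads after CF Im25 siRNA, 6 after CF Im59 siRNA, 4 in the scrambled control and 6 in untreated cells. On the plus strand of chromosome 10 at 71564599 there were 137 CPM after CF Im68 siRNA and 17.9 in its control (7.65-fold, 6.14 to 9.65), while the 4 alkaline libraries held 0 to 2 reads. At chromosome 5 minus strand 36103662 the levels were 21.7 CPM after CF Im68 siRNA and 1.28 in its control, and 4.76 after CF Im25 siRNA, 0.260 after CF Im59 siRNA, 1.96 with scrambled siRNA and 1.21 without siRNA. Among the falls, chromosome 5 minus strand 43526372 had 1.10 CPM after CF Im68 siRNA and 22.4 in its control (20.5-fold lower, 11.2 to 40.8), and 1.24 CPM after CF Im25 siRNA and 6.42 after CF Im59 siRNA, against 13.1 with scrambled siRNA and 9.73 without siRNA. Chromosome 7 plus strand 87530143 had 3.01 CPM after CF Im68 siRNA and 30.9 in its control (10.3-fold lower) with at most 12 reads in an alkaline library. The unit at chromosome X minus strand 62567108 had 2.56 CPM after CF Im68 siRNA and 23.3 in its control, and 2.66 to 4.76 CPM in the alkaline libraries. Chromosome 8 plus strand 28421960 was both lower in total, with 3.92 CPM after CF Im68 siRNA and 29.2 in its control, and among the 3 largest rises of upstream minor ends, which made up 71.5% of its reads after CF Im68 siRNA (108 minor and 43 site reads) against 5.52% in the control (8 and 137).

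The CF Im25 and CF Im68 comparisons share no library. Of 3303 members tested in each of them, 514 were higher with CF Im25 siRNA and 258 with CF Im68 siRNA, and 131 were higher in both. The 131 units are 25.5% of those higher after CF Im25 siRNA, where 7.81% of the 3303 were higher after CF Im68 siRNA, and 19 were lower there. They are 50.8% of the units higher after CF Im68 siRNA, where 514 of the 3303 were higher after CF Im25 siRNA. Of 266 lower after CF Im25 siRNA 46 were lower after CF Im68 siRNA (17.3%, against 5.39% of all), and 26 were higher. For CF Im59 siRNA, 44 of 327 higher units were higher after CF Im68 siRNA (13.5%, against 6.19%), with 22 lower there, and 33 of 310 lower units were lower (10.6%, against 5.60%), with 35 higher there. For scrambled over no siRNA, 10 of 104 higher units (9.62%, against 6.68%) and 6 of 120 lower units were called the same way after CF Im68 siRNA, and 12 and 19 the opposite way. Units with 2 or more sites gave 27.4% for the units higher after CF Im25 siRNA and 20.3% for the lower ones, against 7.79% and 7.30% of all. As shares of the units called after CF Im68 siRNA these were 32.8% and 23.5%, where the members had 50.8% and 25.8%.

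**Figure D5:**
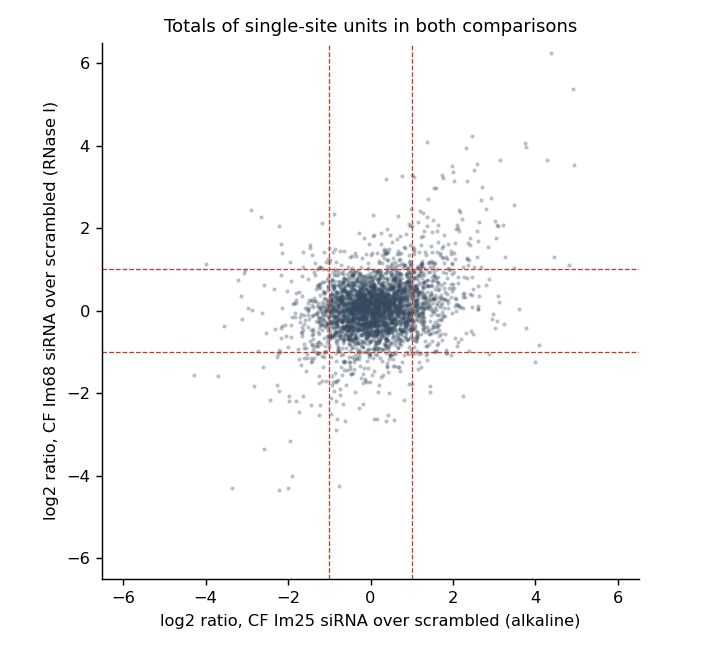
Log2 ratios of totals of 3303 single-site units tested in both comparisons, CF Im25 siRNA over scrambled siRNA (alkaline) on the x axis and CF Im68 siRNA over scrambled siRNA (RNase I) on the y axis, with 0.5 reads added to each count. Dashed lines mark 2-fold; 131 units were called higher in both and 46 lower in both, and most units lie near 0 on both axes.

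The 6 strongest shared rises were all higher after CF Im25 siRNA than after CF Im59 siRNA. Their choice by the CF Im25 and CF Im68 ratios favours that order. On the plus strand of chromosome 9 at 108200783 there were 40.6 CPM after CF Im25 siRNA and 5.64 after CF Im59 siRNA, against 1.27 with scrambled siRNA and 5.86 without siRNA, and 52.9 CPM after CF Im68 siRNA against 4.48 in its control. The folds over scrambled siRNA were 32.1 (17.7 to 64.8) for CF Im25 siRNA and 11.8 (7.66 to 19.2) for CF Im68 siRNA. At chromosome 9 minus strand 124282004 the levels were 21.7 CPM after CF Im25 siRNA and 3.47 after CF Im59 siRNA, against 3.57 with scrambled siRNA and 4.23 without siRNA, and 127 CPM after CF Im68 siRNA against 10.7 in its control. Of the reads at that site 99.3% lay at 1 nucleotide. Chromosome 16 plus strand 22087378 had 21.5 CPM after CF Im25 siRNA and 2.34 after CF Im59 siRNA, against 3.23 with scrambled siRNA and 1.09 without siRNA, and 11.0 CPM after CF Im68 siRNA against 1.28 in its control. Chromosome 19 plus strand 44470192 had 15.2 CPM after CF Im25 siRNA and 2.69 after CF Im59 siRNA, against 2.30 with scrambled siRNA and 1.87 without siRNA, and 17.0 CPM after CF Im68 siRNA against 2.56 in its control. The sites on chromosomes 16 and 19, and 26118635 on chromosome 22, had their nearest downstream site at 5437, 6061 and 6622 nt.

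Of the 6 strongest shared falls, 43526372 on chromosome 5, given above, was 10.6-fold lower after CF Im25 siRNA (5.83 to 21.1) and 20.5-fold lower with CF Im68 siRNA. The other 5 were 3.54-fold to 5.47-fold lower after CF Im25 siRNA and 4.18-fold to 8.95-fold lower with CF Im68 siRNA. The site at chromosome 22 plus strand 26125257, downstream of 26118635, had 6.93 CPM after CF Im25 siRNA and 15.7 after CF Im59 siRNA, against 24.5 with scrambled siRNA and 24.3 without siRNA, and 5.29 CPM after CF Im68 siRNA against 24.1 in its control. At chromosome 3 plus strand 48966102 the levels were 4.45 CPM after CF Im25 siRNA and 12.0 after CF Im59 siRNA, against 24.3 with scrambled siRNA and 25.8 without siRNA, and 7.03 CPM after CF Im68 siRNA against 31.6 in its control. Chromosome 14 plus strand 103377837, whose nearest upstream site lay 5208 nt away, had 13.2 CPM after CF Im25 siRNA and 25.5 after CF Im59 siRNA, against 52.3 with scrambled siRNA and 37.4 without siRNA, and 10.4 CPM after CF Im68 siRNA against 43.5 in its control. At these 3 units CF Im59 siRNA lay between CF Im25 siRNA and the alkaline controls, an order that their choice by a low CF Im25 ratio favours.

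Without a targeting siRNA the folds were smaller. The first of the rises for scrambled over no siRNA by interval limit, chromosome 17 plus strand 8031510, had 25.9 CPM with scrambled siRNA and 3.26 without siRNA (7.94-fold, 5.88 to 10.9, where the largest fold of the first 10 was 8.97), and 3.72 after CF Im25 siRNA and 2.08 after CF Im59 siRNA. The abundant unit on chromosome X minus strand at 106956460 had 748 CPM with scrambled siRNA and 2620 without siRNA (3.50-fold lower, 3.41 to 3.59), and 2237 after CF Im25 siRNA and 1715 after CF Im59 siRNA. At both units the scrambled library stood apart from all 3 other alkaline libraries.

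The main nucleotide held a larger share of the reads at single sites than at other sites in the pooled and the alkaline libraries. The rule had taken that nucleotide as the highest of the pool, and members were at lower levels than other units. The part of either in this difference was not tested. A median of 71.7% of the reads lay at the main nucleotide (interquartile range 47.9 to 92.8), against 62.1% at the sites of other units, and 95% or more did at 3597 members (19.6%, against 9.58%). All reads lay at 1 position at 458 members. Over sites with at least 50 reads in both libraries compared, the median share in the RNase I libraries was 52.46% at single sites and 52.49% at other sites after CF Im68 siRNA, and 54.2% and 53.8% in its control, against 69.5% and 65.4% after CF Im25 siRNA. The share at the main nucleotide hardly moved, with median changes of -0.10 points after CF Im25 siRNA (3817 units), 0.24 after CF Im59 siRNA (4012 units), -0.75 after CF Im68 siRNA (2753 units) and -0.27 for scrambled over no siRNA (4572 units).

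Changes of the totals varied with the share at the main nucleotide. Among members with less than 50% at the main nucleotide, 24.1% were higher and 9.03% lower after CF Im25 siRNA, and among those with 95% or more, 13.8% were higher and 24.5% lower. Scrambled over no siRNA had the opposite pattern, 2.68% higher and 7.88% lower among these broad sites, and 12.9% higher and 3.29% lower among the focused ones. With no siRNA as the control, CF Im25 siRNA gave 12.9% higher and 11.0% lower among broad sites, and 10.4% and 13.5% among focused ones. After CF Im68 siRNA 19.8% of broad sites were higher and 4.33% lower, against 13.0% and 11.5% of the focused ones, of which 200 could be tested. The part of the scrambled library in this pattern was not tested.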

How the data were processed

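A-seq read ends of 6 HEK293 libraries, 1 per group, were used. The deposited files give counts, left unscaled by the authors: reads ending at a nucleotide, per strand. Per the submitters' processing notes the builds are hg19 and GRCh37, and positions on chromosome 1 reach 249229753. Not given in the sources used here are the aligner and whether duplicates or internally primed reads were removed. Members and lists were chosen with earlier results of these data known.

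Sites and units were built with Python 3.11.15, numpy 2.4.6 and scipy 1.17.1. Totals were scaled to the reads in all nuclear units. Intervals of ratios are exact, from the binomial distribution of the 2 counts (for the quotient of minor ends, a normal approximation), and log2 ratios used 0.5 added reads. The calling rule and the window sums were tested on simulated or directly counted data. Per comparison the first 10 units each way by the interval limit nearer to 1 could be named, the first 6 shared by CF Im25 and CF Im68 siRNA, and the 6 highest; a few of each are given, leaving out others after their values were seen. Alternatives were TMM scaling (edgeR 4.0.16), median-of-ratios scaling, thinning, other minimum reads, gaps, windows and thresholds, and the other control. The planned search of upstream sequence and the gene lists were not done, as no genome of the files' build was used.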

Additional observations from a re-analysis of the deposited data

How the results depend on the processing

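No paired analysis was possible because each group held 1 library, and for the same reason no library could be left out. Of 153 values under an alternative, 70 stayed within 1.5 times a count or within the interval or spread of the main value, 82 moved, and 1 whose interval excluded no change turned round. A further 6 values, close to no change in the main setting, changed side: the quotient of minor ends for CF Im59 siRNA (0.997) and scrambled siRNA (0.980 and 0.982), and medians near a neighbour for CF Im25 siRNA (0.0020 upstream, counted to 20 kb), CF Im59 siRNA (0.065) and scrambled siRNA (-0.10). A smaller join gap of 1000 nt gave 28776 single-site units. Counts below are higher and lower members in the order CF Im25, CF Im59, CF Im68 and scrambled siRNA over its control. Thinned, they were 531 and 510, 352 and 492, 334 higher for CF Im68 siRNA, and 230 and 129. With no minimum reads they were 2707 and 2671, 1936 and 2739, 1330 and 2253, and 1930 and 976. With at least 100 reads they were 500 and 421, 373 and 416, 405 and 136, and 168 and 198, and 62 units were called the same way after CF Im25 and CF Im68 siRNA, against 177. At a mean CPM of 5 or more, chosen like all restrictions of the members after seeing the data, they were 562 and 439, 421 and 452, 254 higher for CF Im68 siRNA, and 162 and 149. Against no siRNA 560 members were higher after CF Im59 siRNA. Without members with 95% or more at the main nucleotide, 300 were higher for scrambled over no siRNA. Fewer or more units tested are part of these alternatives' construction.

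Median log2 ratios moved with TMM and median-of-ratios scaling to 0.12 and 0.11 for CF Im59, 0.35 and 0.33 for CF Im68, and -0.12 and -0.12 for scrambled siRNA over its control. With TMM, members with a neighbour 5 to 10 kb downstream and upstream had medians of 0.065 and 0.17, 0.38 and 0.23, and 0.0022 and -0.10 in the same 3 comparisons. Over units with at least 200 reads the main nucleotide changed by -0.44 points for scrambled over no siRNA.

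Minor ends counted to 2000 nt gave upstream ratios of 1.16, 0.889, 1.15 and 1.08, downstream ratios of 0.884 and 0.834 for CF Im25 and CF Im59 siRNA and 1.10 for scrambled siRNA, and ratios of the quotient of 1.32, 1.07, 1.51 and 0.980. Counted beyond 100 nt only, CF Im25 siRNA gave 1.16 upstream, 0.892 downstream and 1.30 for the quotient, CF Im68 siRNA 1.10, 0.748 and 1.46, and scrambled siRNA 1.14 upstream. With at most 5 reads per position the downstream ratios were 0.922, 0.848, 0.708 and 1.23, the upstream ratio 1.21 for scrambled siRNA and 0.960 for CF Im68 siRNA, which reversed, and the quotient 1.23 for CF Im25, 1.36 for CF Im68 and 0.982 for scrambled siRNA. Without a site within 10 kb the upstream ratios were 0.853 for CF Im59, 1.13 for CF Im68 and 1.15 for scrambled siRNA, the downstream ratios 0.865 for CF Im25 and 0.719 for CF Im68 siRNA, and the quotients 1.32, 0.997, 1.58 and 1.03. The cause of the reversal and of these moves was not tested. At a median of 10 to 39 reads per member, changes of most single units were not detectable at this depth.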
